A study of Arabidopsis thaliana with 12 samples.

Results

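Class III peroxidases are plant peroxidases that are secreted to the cell wall and the vacuole. They were followed here in whole wild-type Arabidopsis thaliana seedlings of the Columbia ecotype given sucrose and sulfamethoxazole (SMX), a sulfonamide that inhibits folate synthesis. The members were 60 loci of the family, chosen by locus identifier, and 46 of them had a probe set that the platform annotation pairs with 1 gene. All 46 were tested, and no filter on low values removed any. Another 5 loci (AT2G18150, AT2G38380, AT2G38390, AT4G37520 and AT4G37530) were seen only by probe sets shared with another gene. For the remaining 9 (RCI3, PER4, PRXCA, PRXCB, PA2, RHS18, PER64, RHS19 and AT3G32980) no probe set was paired with the locus. These 14 loci were not analysed here.

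The 12 Affymetrix arrays fell into 4 treatments of 3 biological replicates: 10 mM sucrose together with 0.2 µM SMX, 10 mM sucrose, 0.2 µM SMX, and no addition (control). All groups shared the wild-type genotype, liquid MS medium in foil-wrapped 24-well plates, 3 days of cold at 4 °C, 6 h of light to start germination and 3 days of growth at 21 °C. Whether the foil stayed on during growth is not given in the sources used here. RNA came from whole seedlings, so fewer cells of a type and less RNA per cell cannot be told apart in any result below. The comparisons ask which transcripts differ with each agent and with their combination.

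Class III peroxidases carry a haem group and use hydrogen peroxide to oxidise phenolic compounds. They cross-link lignin precursors and wall proteins, which stiffens walls, and can also make reactive oxygen species that loosen walls in growing cells. In the seedling they are known from root hairs, from the lignified barrier of the root endodermis called the Casparian strip, and from xylem vessels. UPB1 is a transcription factor that represses several peroxidase genes at the root transition from division to elongation.

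Each value is a log2 expression value of a probe set on an array, as the authors deposited it, and 2.12 was the lowest value on every array. A probe set that lies there has no measured level, and a change against such a group is a lower bound. Differences were tested with limma over 22746 probe sets and 12 arrays, and the threshold for a call was 0.05 after Benjamini-Hochberg adjustment over all of them. The adjusted p-values below all come from this fit. Levels of different probe sets were not compared with each other. Array medians lay between 5.63 and 5.84.

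The labelling of the RNA differed between the arrays with and without sucrose. The spike score is the log2 signal of the 3′ probe sets minus that of the 5′ probe sets for bacterial control transcripts. It ran from 0.11 to 0.70 with sucrose plus SMX, from 0.13 to 0.94 with sucrose, from 3.57 to 6.59 with SMX and from 3.26 to 5.86 in the control. The sucrose and no-sucrose arrays did not overlap on it. Labelling and sucrose therefore cannot be told apart, whereas the arrays compared for SMX at the same sucrose level had overlapping scores.

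With a mean over the 12 arrays above 5 taken as expressed, 28 of the 46 members (60.9%) were expressed, against 56.3% of all probe sets. Their means ran from 5.23 to 12.6. The mark fell between AT1G49570, with a mean of 5.23, and AT5G19890, with a mean of 4.84. Both lay low without sucrose and high with it. AT5G19890 and AT2G39040 were the members below the mark whose mean passed 5 in at least 1 treatment, so 30 members had a treatment mean above 5.

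The other 16 members stayed below 5 on every array. Of these, 6 lay within 0.1 of the lowest value on all 12 arrays: AT1G24110, AT5G05340, AT5G14130, AT5G19880, AT5G47000 and AT5G58390. AT5G05340 is PRX52, which is known for lignin of interfascicular fibres in the stem. AT3G50990 (PER36), which loosens the seed coat wall during mucilage release, read between 2.12 and 2.43. AT4G16270, which acts in the anther tapetum and is a target of UPB1, read between 2.18 and 2.61.

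Limma's F test, which asks whether the 4 treatments differ, called 26 of the 46 members (56.5%), against 31% of all probe sets. Of these, 22 were expressed.

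**Figure D1:**
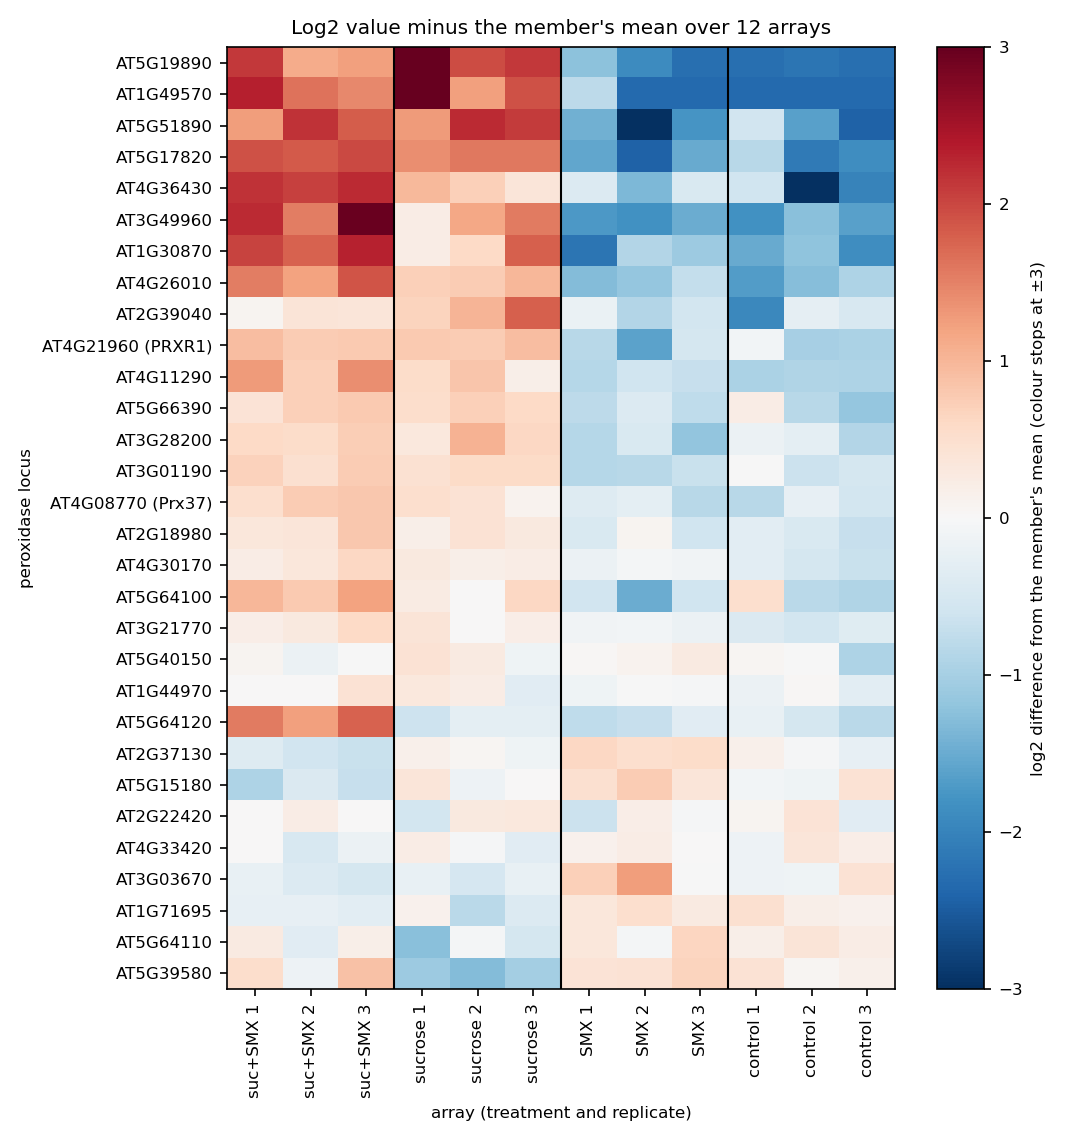
Rows are the 30 members with a treatment mean above 5 and columns are the 12 arrays by treatment. Colour gives the log2 value minus the member's own mean over the 12 arrays, with the scale ended at 3 either way. The upper rows are above their mean on the sucrose arrays and below it on the others, and AT5G64120 is high on the sucrose plus SMX arrays.

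Sucrose alone raised 18 members and lowered 1. Of the root hair peroxidases that could be followed, 1 of 3 rose and 1 fell. Of those of the Casparian strip 2 of 3 rose, and of those known for lignin elsewhere 1 of 6 rose. The 18 that rose are 39.1% of the members, against 11.9% of all probe sets called up. The call down was AT5G39580, where 11.6% of all probe sets were called down. The median difference over the 46 members was 0.05, against 0 over all probe sets. Of the 18 rises, 9 were of at least 2 on the log2 scale, 4 lay between 1 and 2, and 5 were under 1. The 3 sucrose arrays lay above the 3 control arrays for all 18, where 17.1% of all probe sets did so. They lay below them for 4 members, against 17.7% of all probe sets. Called in either direction were 41.3% of the members and 23.5% of all probe sets.

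Repeated on a background of SMX, sucrose raised 20 members and lowered 5. That comparison shares no array with the first, though both rest on the same fit and on the same split of labelling scores. The 20 rises are 43.5% of the members, against 16.2% of all probe sets called up, and 16.2% were called down. In either direction 54.3% of the members and 32.5% of all probe sets were called. All sucrose plus SMX arrays lay above all SMX arrays for 23 members and below them for 6, against 22.3% and 23% of all probe sets. In both comparisons 17 members rose, which is 94.4% of the first list and 85% of the second. The 3 called up only on SMX were AT1G68850, AT5G64100 and AT5G64120. AT1G68850 averaged 2.72 with sucrose plus SMX, against 2.16 with SMX, both close to the lowest value of the series. Of all probe sets, 10.3% were called up in both. No member was called down in both by limma, where 9.83% of all probe sets were. The exception from the first list was AT2G39040, which rose by 2.06 (SE 0.449, adjusted p = 0.0123) with sucrose alone. On SMX its difference was 0.82 (SE 0.449) and was not called, though all sucrose plus SMX arrays lay above all SMX arrays. In a limma fit of only the arrays compared it was called on SMX (adjusted p = 0.0458). In that kind of fit it was not called for sucrose alone (adjusted p = 0.105).

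**Figure D2:**
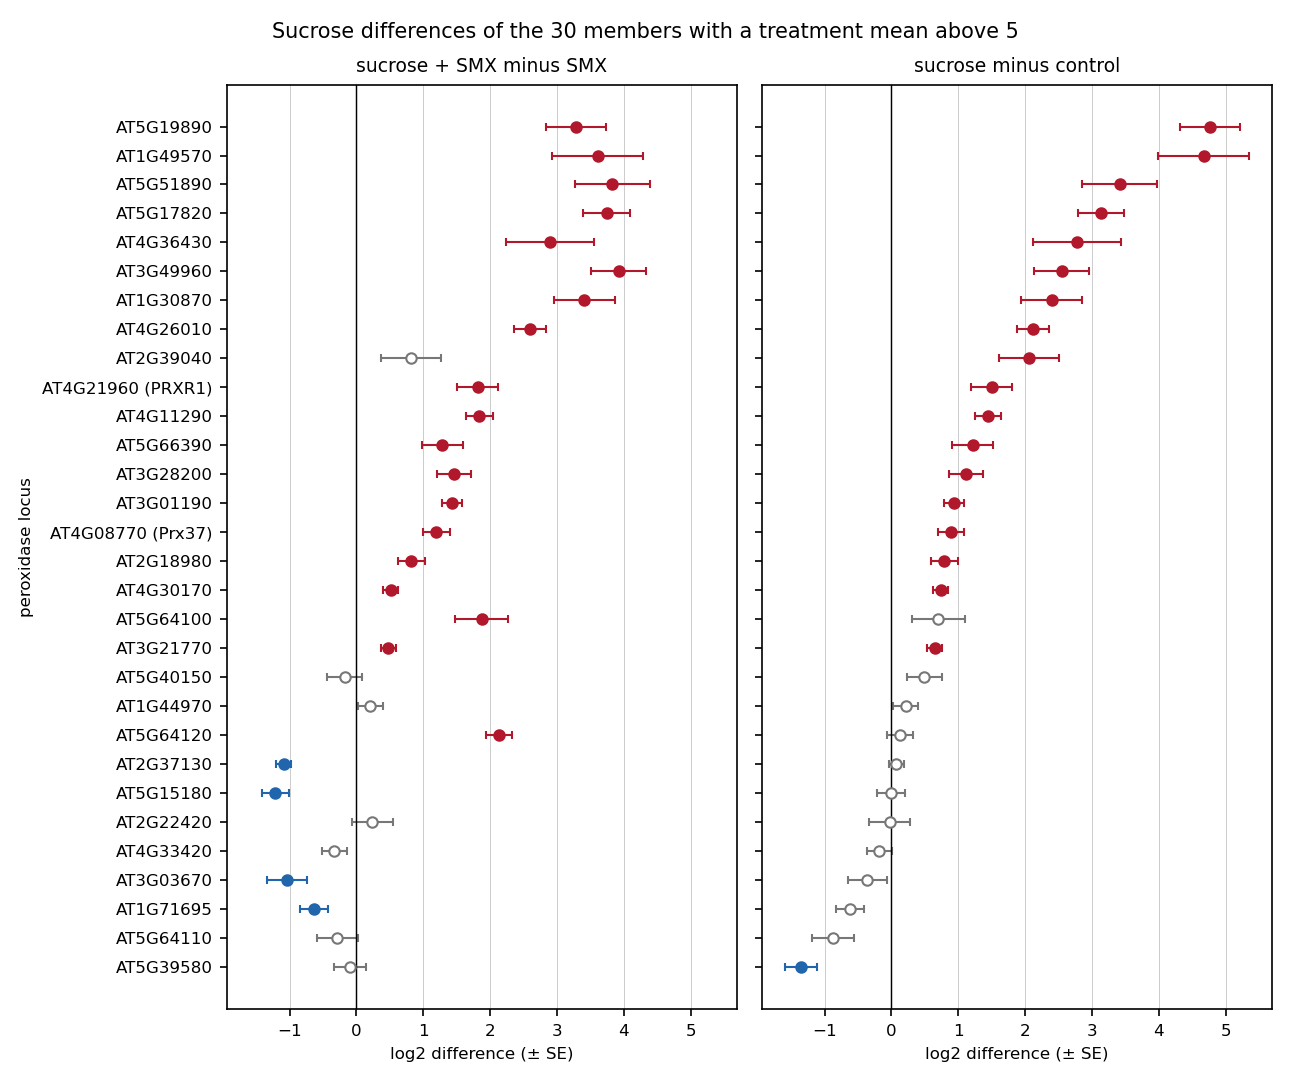
Points are log2 differences with sucrose, sucrose plus SMX minus SMX on the left and sucrose minus control on the right, with bars of 1 SE, for the 30 members with a treatment mean above 5. Filled red points were called up, filled blue points down and open points were not called. The loci at the top lie far right of 0 in both panels, AT5G39580 is lower in the right panel only, and AT5G64120 is higher in the left panel only.

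UPB1 itself read lower with sucrose, and 2 of its 3 reported targets, AT5G17820 and AT4G11290, read higher. AT5G17820 had 11.75, 11.95 and 11.94 on the sucrose arrays, against 9.53, 8.23 and 8.49 on the control arrays. The groups were more than 2 apart, and control replicate 1 was the highest of the control. The rise was 3.13 on the log2 scale (8.75-fold, SE 0.345, adjusted p = 0.000805). On SMX it was 3.74 (SE 0.345, adjusted p = 0.00019), with 12.28, 12.19 and 12.34 on the sucrose plus SMX arrays, against 8.81, 7.92 and 8.85 on the SMX arrays.

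AT4G11290, which is also a peroxidase of the Casparian strip, had 9.26, 9.53 and 8.88 with sucrose, against 7.76, 7.80 and 7.78 in the control. The control arrays lay within 0.04 of each other and the sucrose arrays were all higher, by 1.44 on average (2.72-fold, SE 0.199, adjusted p = 0.00204). The third target, AT4G16270, stayed near the lowest values in both groups, with means of 2.19 with sucrose and 2.18 in the control. UPB1 averaged 6.26 ± 0.52 with sucrose, against 8.52 ± 0.58 in the control (SD, n = 3 each), a difference of −2.26 (SE 0.356, adjusted p = 0.00336, limma). With sucrose plus SMX it averaged 4.66 ± 0.45, against 8.23 ± 0.091 with SMX (SD, n = 3 each). The part of UPB1 in the peroxidase differences was not tested.

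Among the peroxidases known from root hairs, 3 of 5 could be followed, and they moved apart. AT4G26010, which supports root hair growth, had 11.41, 11.47 and 11.69 with sucrose, against 9.01, 9.43 and 9.77 in the control. The sucrose arrays lay within 0.3 of each other, well above the control, and the rise was 2.12 (4.34-fold, SE 0.241, adjusted p = 0.000925). AT5G39580, which acts in root hair growth at low temperature, had 7.57, 7.36 and 7.64 with sucrose, against 9.09, 8.72 and 8.81 in the control. It was the member that fell, by 1.35 on the log2 scale (SE 0.237, adjusted p = 0.00516). AT5G64100, known from the same low-temperature growth, had 12.77, 12.53 and 13.14 with sucrose, against 13.01, 11.70 and 11.62 in the control. Control replicate 1 lay among the sucrose arrays, and the difference of 0.70 (SE 0.399) was not called. Without that array it was 1.15 (adjusted p = 0.0261).

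Of the 8 root hair markers, EXPA7 and EXPA18 could be matched, and both rose with sucrose, by 2.75 (SE 0.307) and 3.96 (SE 0.297), with limma adjusted p = 0.000852 and 0.000161. Their part in the peroxidase differences was not tested. AT3G49960 and AT1G30870, which were not on the list of root hair peroxidases, also rose with sucrose. AT3G49960 had 6.89, 7.83 and 8.23 with sucrose, against 4.86, 5.41 and 5.04 in the control, a rise of 2.55 (5.85-fold, SE 0.413, adjusted p = 0.00374). AT1G30870 had 9.08, 9.46 and 10.64 with sucrose, against 7.35, 7.64 and 6.98 in the control, a rise of 2.40 (5.28-fold, SE 0.456, adjusted p = 0.00712). For both the groups were clearly separate, and the sucrose arrays spread more widely than the control arrays. The call of AT1G30870 ended in a limma fit of only the sucrose and control arrays (adjusted p = 0.057).

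Among the 5 Casparian strip peroxidases 3 could be followed, and 2 rose with sucrose alone. Beside AT4G11290, AT5G66390 (PRX72), which also acts in stem lignin, had 11.05, 11.22 and 11.11 with sucrose, against 10.73, 9.67 and 9.34 in the control. Control replicate 1 came closest to the sucrose arrays. The rise was 1.21 (SE 0.311, adjusted p = 0.0237), and the call ended without control replicate 2, control replicate 3, sucrose replicate 2 or sucrose replicate 3, with adjusted p from 0.0672 to 0.0803. AT1G44970 had 9.38, 9.27 and 8.70 with sucrose, against 8.88, 9.09 and 8.73 in the control, groups that overlapped, and was not called. The matched endodermis marker of 8, SGN3, a receptor kinase that keeps the strip continuous, differed by −0.42 (SE 0.165) with sucrose alone and was not called. It was called down with sucrose plus SMX against control (−0.56, adjusted p = 0.0359) and against SMX (−0.55, adjusted p = 0.0316). Its part in the peroxidase differences was not tested.

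Of the 7 peroxidases known for lignin elsewhere, 6 could be followed and 1 rose. AT5G51890, a peroxidase of lignifying xylem vessels, had 8.45, 9.41 and 9.26 with sucrose, against 6.60, 5.55 and 4.73 in the control. The control arrays spread over almost 2 units and still lay below all sucrose arrays. The rise was 3.41 (10.6-fold, SE 0.565, adjusted p = 0.00408). AT4G33420, also a vessel peroxidase, had 8.44, 8.18 and 7.88 with sucrose, against 8.07, 8.58 and 8.41 in the control. AT2G22420, known for lignin in stems, had 5.48, 6.33 and 6.35 with sucrose, against 6.13, 6.44 and 5.69 in the control. Both groups overlapped in each. PRX25 (AT2G41480) had 3.07, 2.65 and 2.94 with sucrose, against 3.06, 3.07 and 4.04 in the control. PRX52 read 2.12 on all arrays, and AT5G64120 is described with SMX. None of these 5 was called for sucrose alone, and none of the 6 xylem vessel markers was matched to a probe set.

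The largest log2 rises with sucrose alone were those of AT5G19890 and AT1G49570, both near the bottom of the scale without sucrose. AT5G19890 had 8.35, 6.80 and 6.96 with sucrose, against 2.59, 2.65 and 2.59 in the control. AT1G49570 had 9.12, 6.46 and 7.14 with sucrose, against 2.91, 2.91 and 2.89 in the control. The fitted differences of 4.76 (SE 0.45, adjusted p = 0.00044) and 4.67 (SE 0.676, adjusted p = 0.00241) are not exact sizes, because the control values lay near the lowest value of the series. In both, sucrose replicate 1 was the highest sucrose array. AT4G36430 rose by 2.77 (SE 0.656, adjusted p = 0.0173), with 6.81, 6.55 and 6.22 with sucrose, against 5.25, 2.16 and 3.85 in the control. Control replicate 2 was near the lowest value, and the call ended without sucrose replicate 2 (adjusted p = 0.0547).

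The remaining 7 rises with sucrose alone were all under 2 on the log2 scale. PRXR1 (AT4G21960) had 13.37, 13.33 and 13.49 with sucrose, against 12.50, 11.57 and 11.62 in the control, a 2.83-fold rise (SE 0.304 on the log2 scale, adjusted p = 0.00929). Its call ended in a limma fit of only the sucrose and control arrays (adjusted p = 0.0534). AT3G01190 rose by 0.93, AT3G28200 by 1.11, Prx37 (AT4G08770) by 0.89, AT2G18980 by 0.79, AT4G30170 by 0.74 and AT3G21770 by 0.65, with adjusted p from 0.00259 to 0.0232. Overexpression of Prx37 is known to slow growth. The calls of AT3G28200 and Prx37 ended without sucrose replicate 2 (adjusted p = 0.0546 and 0.05). That of AT2G18980 ended without control replicate 2, control replicate 3, sucrose replicate 2 or sucrose replicate 3 (adjusted p from 0.0603 to 0.0824).

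**Figure D3:**
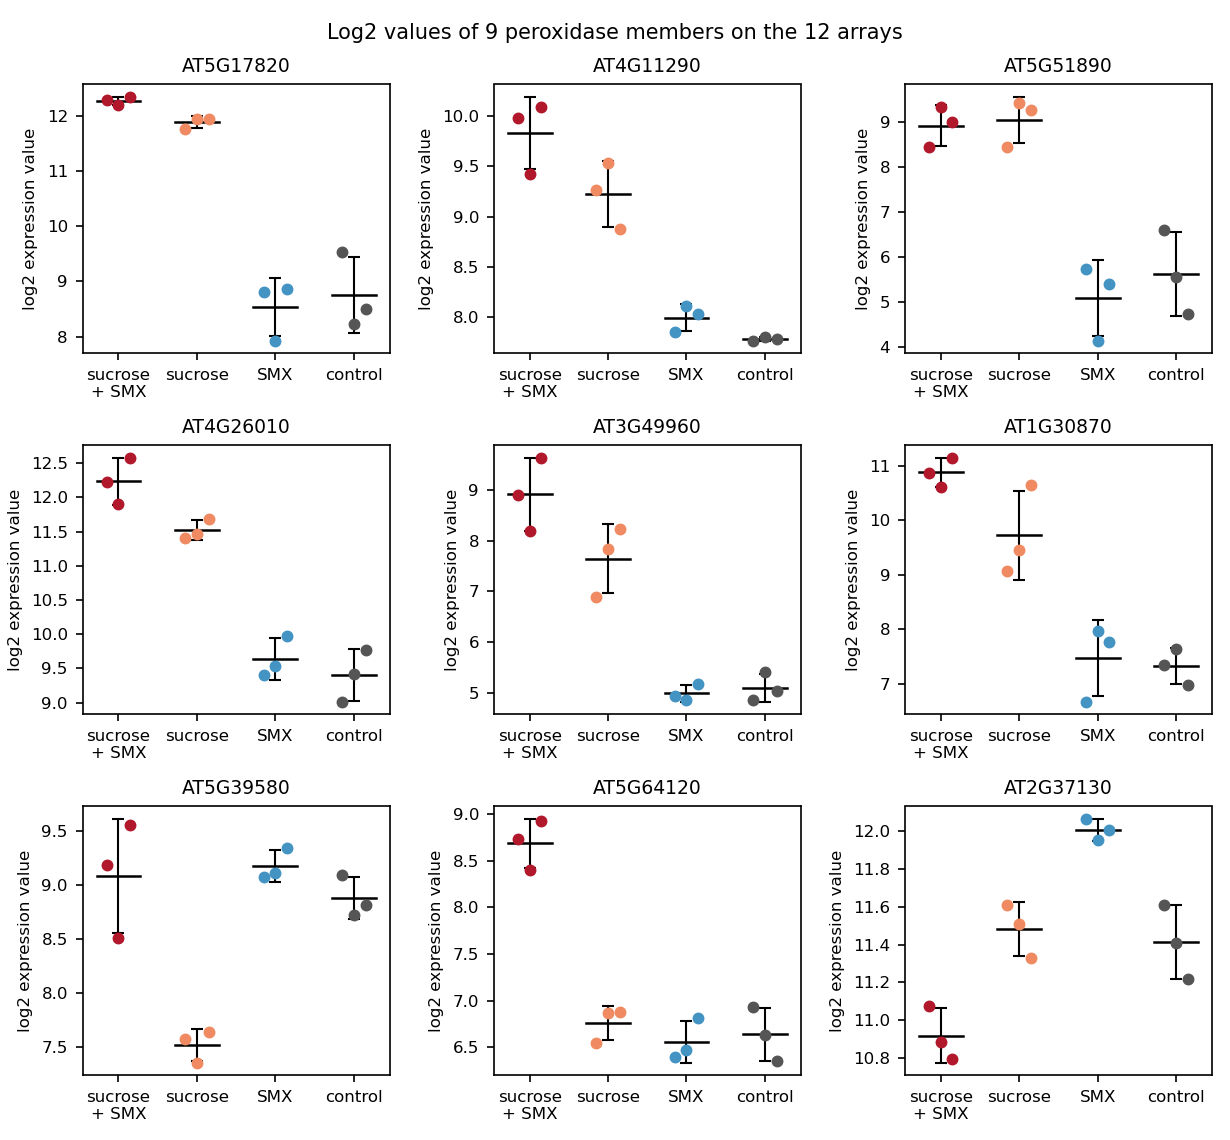
Points are log2 values of 9 members on each array, with the mean and a bar of 1 SD for the 3 arrays of a treatment. In the upper 6 panels the sucrose and sucrose plus SMX arrays lie above the SMX and control arrays. In the lower row AT5G39580 is lowest with sucrose alone, AT5G64120 is highest with sucrose plus SMX, and AT2G37130 is highest with SMX and lowest with sucrose plus SMX.

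With the spike score in the fit, none of the 19 sucrose calls remained (0 of 46 members called, against 0.211% of all probe sets), while all 19 kept their sign. With the score, 13 of the 46 (28.3%) had an unadjusted p under 0.05, against 10.7% of all probe sets. Without it 21 did (45.7%), against 35.5%. The median rise of the 18 was 1.15 with the score and 1.78 without it, and their median SE was 0.483 with it and 0.308 without it. AT4G26010 was 2.79 (SE 0.432, adjusted p = 0.0653) and AT5G19890 was 4.69 (SE 0.963, adjusted p = 0.121). AT5G51890 was 0.77 (SE 0.488) with the score, against 3.41 without it, and PRXR1 was 0.43 (SE 0.472). With an actin score made the same way, AT5G17820 and AT5G19890 stayed called (adjusted p = 0.0375 and 0.0388). Since the score and sucrose move together, neither a kept nor a smaller size separates them.

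**Figure D4:**
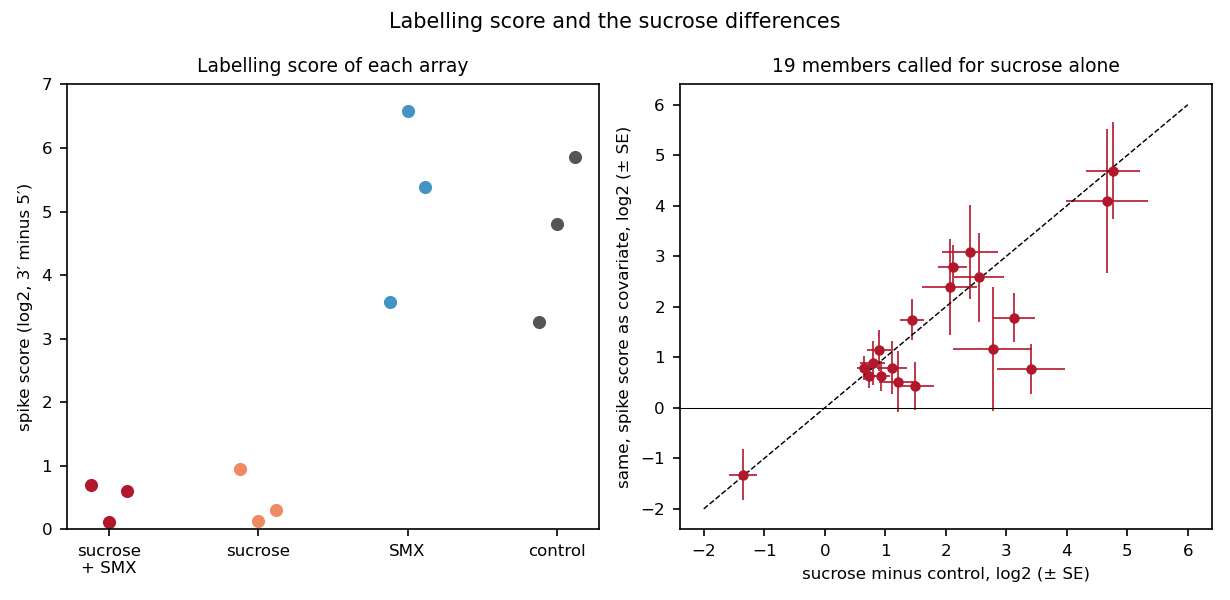
Left, the spike score of each array by treatment, with arrays grown with sucrose between 0.11 and 0.94 and arrays without it between 3.26 and 6.59. Right, the log2 sucrose difference of the 19 called members, without the score on the horizontal axis and with it as a covariate on the vertical axis, with bars of 1 SE and a dashed line of equal size. All 19 points keep their sign, and AT5G51890 lies furthest below the line.

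SMX alone moved few members at this dose. It called 1 of the 46, AT4G16270, which is 2.17% of the members, against 0.0659% of all probe sets called up, 0.0176% called down and 0.0835% called either way. All SMX arrays lay above all control arrays for 5 members and below them for 1, against 4.1% and 3.36% of all probe sets. AT4G16270 had 2.46, 2.61 and 2.48 with SMX, against 2.18, 2.18 and 2.18 in the control. The groups were separate but lay within 0.5 of the lowest value of the series, so the difference of 0.34 (SE 0.0334, adjusted p = 0.0139) is not a change between measured levels. The call ended after median centring (adjusted p = 0.249), after quantile normalization (0.32) and with a replicate block (0.0699). It also ended in a limma fit of the 6 SMX and control arrays by themselves (0.602), which called 0 of the 22746 probe sets. Of the 28 expressed members, 23 differed by less than 0.5 in size, with SEs from 0.109 to 0.676 and a median SE of 0.247. The range over the 28 was −0.54 for AT5G51890 to 1.35 for AT4G36430, whose control arrays ran from 2.16 to 5.25.

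SMX added to sucrose raised 1 member, AT5G64120 (PRX71), a lignin-forming peroxidase that restrains growth and is induced by wall damage. It had 8.73, 8.40 and 8.93 with sucrose plus SMX, against 6.55, 6.86 and 6.88 with sucrose alone. The lowest array with both lay more than 1.5 above the highest with sucrose. The rise was 1.92 (3.80-fold, SE 0.193, adjusted p = 0.00856), where 0.119% of all probe sets were called up, 0.0703% down and 0.189% either way. With SMX alone AT5G64120 had 6.39, 6.47 and 6.82, against 6.93, 6.63 and 6.35 in the control, a difference of −0.08 (SE 0.193). Its interaction, the SMX difference with sucrose minus that without, was 2.002 (SE 0.273) and missed the threshold (adjusted p = 0.0602). The call for SMX on sucrose held with the spike score (1.93, adjusted p = 0.0199), the actin score (1.88, adjusted p = 0.02) and a replicate block (adjusted p = 0.0457). It ended when only the 6 arrays were fitted (adjusted p = 0.19), a fit that called 0 of the 22746 probe sets.

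The replicate number as a block spanned all 12 arrays, also groups whose numbers were not taken to pair. With this block the count for SMX on sucrose was 2, against 0.123% of all probe sets, the second being AT2G37130. It had 11.08, 10.88 and 10.80 with sucrose plus SMX, against 11.61, 11.51 and 11.33 with sucrose, a difference of −0.56 (SE 0.114, adjusted p = 0.161). With the block its SE was 0.0602 (adjusted p = 0.0457). With SMX alone it had 12.07, 11.95 and 12.00, against 11.61, 11.41 and 11.22 in the control, a difference of 0.59 (SE 0.114) that was not called. The groups were separate in both comparisons, in opposite directions. The interaction was −1.16 (SE 0.161, adjusted p = 0.0602).

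AT5G39580, the member that fell with sucrose alone, was back near the control level with sucrose plus SMX, at 9.18, 8.51 and 9.55, against 7.57, 7.36 and 7.64 with sucrose. The groups did not overlap, and the difference of 1.56 (SE 0.237) just missed the threshold (adjusted p = 0.0637). Without sucrose plus SMX replicate 2, the lowest of its group, the difference was 1.84 (adjusted p = 0.00933). It was also called after median centring (adjusted p = 0.0344) and among probe sets with a mean above 4 (0.0122) or above 6 (0.0109). AT1G68850 had 2.44, 2.87 and 2.84 with sucrose plus SMX and lay at or within 0.11 of 2.12 on every other array. Its difference of 0.60 from sucrose was not called (adjusted p = 0.0807), but was without sucrose plus SMX replicate 1 (0.73, adjusted p = 0.000161).

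Over all 46 members, 9 were higher and 3 lower on all sucrose plus SMX arrays than on all sucrose arrays, against 4.64% and 5.06% of all probe sets. The root hair peroxidase AT4G26010 was among the higher, with a difference of 0.71 (SE 0.241), and AT5G15180 among the lower, with −0.75 (SE 0.205). Neither was called. The unadjusted p was under 0.05 for 10 of the 46 members (21.7%) for SMX on sucrose, against 5.52% of all probe sets. For SMX alone it was so for 6 members (13%), against 6.64%.

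No member was called for the interaction by limma (0% of 46, against 0.0703% of all probe sets either way and 0.0352% in each direction), while 9 (19.6%) had an unadjusted p under 0.05, against 6.12% of all probe sets. The lowest adjusted p, 0.0602, was shared by AT5G64120, AT2G37130 and AT4G16270. AT5G64120 passed after median centring (adjusted p = 0.032), among probe sets with a mean above 4 (0.026) or above 6 (0.0235) and without SMX replicate 3 (0.0441). AT2G37130 passed after median centring (adjusted p = 0.032) and without control replicate 1 (0.0459). AT4G16270 passed without SMX replicate 2 (adjusted p = 0.000639), and AT1G68850 without sucrose plus SMX replicate 1 (adjusted p = 0.0017). These last 2 members lay near the lowest value of the series, at 2.18 to 2.61 and 2.12 to 2.87, so their interactions are not changes between measured levels.

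Set against the control, sucrose plus SMX raised 20 members and lowered 2, where 13.5% of all probe sets were called up, 13.7% down and 27.2% either way. All sucrose plus SMX arrays lay above all control arrays for 21 members and below them for 4, against 18.7% and 19.9% of all probe sets. The control arrays are the same ones used for each agent alone. The 2 that fell were AT2G37130, by 0.49 (SE 0.114, adjusted p = 0.0129), and AT5G15180, by 0.76 (SE 0.205, adjusted p = 0.025). The call of AT5G15180 ended without control replicate 3 and without either replicate 1 or replicate 3 of sucrose plus SMX (adjusted p from 0.0679 to 0.0853), with a replicate block (0.0551) and when only the 6 arrays were fitted (0.0884). That of AT2G37130 ended in the last of these fits (0.0779). Among the rises AT5G64100 was called, at 1.40 (SE 0.399, adjusted p = 0.0312), but lost its call without any single sucrose plus SMX array or without control replicate 2 or 3 (adjusted p from 0.0584 to 0.105). AT3G49960 differed by 3.82 (SE 0.413) and AT1G30870 by 3.55 (SE 0.456), against 2.55 and 2.40 with sucrose alone.

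On SMX, the 5 members lower with sucrose were AT2G37130, by 1.09, AT5G15180, by 1.21, AT3G03670, by 1.04, AT1G71695, by 0.63, and AT4G16270, near the lowest values. AT2G37130 and AT5G15180 had adjusted p = 0.00032 and 0.00245. The calls of AT1G71695 and AT3G03670 were unstable: they ended without SMX replicate 2, with adjusted p = 0.13 and 0.071, and without several other arrays. AT1G71695 also read lower with sucrose alone, at 10.23, 9.30 and 9.71, against 10.60, 10.28 and 10.23 in the control. It was not called there (adjusted p = 0.0603), but was after median centring (0.0191), after quantile normalization (0.0278), among probe sets with a mean above 4 (0.0358) or above 6 (0.0317) and without sucrose replicate 1 (0.00665).

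Some members are neighbours in the genome. AT5G64100, AT5G64110 and AT5G64120 follow one another in the annotation. For sucrose plus SMX against sucrose all 3 differences were positive, at 0.69, 0.65 and 1.92, and AT5G64120 was called. With sucrose alone they were 0.70, −0.87 and 0.13, and for sucrose plus SMX against control 1.40, −0.23 and 2.05. AT5G19880, next to AT5G19890, and AT4G08780, next to Prx37, lay at or near the lowest value, so these pairs could not be compared. Whether probe sets also bind transcripts of close paralogs was not tested.

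Few genes of the surrounding pathways could be matched. Of the NADPH oxidases, which make the superoxide that yields hydrogen peroxide, 3 of 10 were matched and 1 rose with sucrose alone. RBOHG averaged 8.11 ± 0.30 with sucrose, against 6.81 ± 0.23 in the control (SD, n = 3 each), a difference of 1.297 (SE 0.34, adjusted p = 0.0258, limma). Of 18 genes of monolignol synthesis, which makes lignin precursors, 2 were matched. HCT rose by 1.28 (SE 0.19, adjusted p = 0.00266) and CCR2 lay near the lowest value. Of 11 ascorbate peroxidases and catalases, enzymes that remove hydrogen peroxide inside the cell, 2 were matched. The chloroplast SAPX rose by 1.08 (SE 0.163, adjusted p = 0.00283) and TAPX, of the thylakoid, fell by 1.72 (SE 0.309, adjusted p = 0.0056). The matched laccase of 17, LAC16, lay at the lowest value, and none of 8 glutathione peroxidases was matched.

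The root marker PYK10, of 4 on its list, averaged 14.0 ± 0.12 with sucrose and 14.1 ± 0.052 in the control (SD, n = 3 each), a difference of −0.054 (SE 0.0875) that was not called. PYK10 was called down with sucrose plus SMX against control (−0.36, adjusted p = 0.0155) and against SMX (−0.49, adjusted p = 0.00317). None of the 6 photosynthesis markers was matched. The light-harvesting genes LHCB4.1, LHCB4.2 and LHCB4.3, taken in their place once the coverage was known, were not called for sucrose alone. With sucrose plus SMX against SMX they differed by −0.65, −0.78 and −0.75, and LHCB4.3 was called (adjusted p = 0.0104). The part of these markers in the peroxidase differences was not tested. LHCB4.1 averaged 11.3 ± 0.34 with sucrose and 11.6 ± 0.21 in the control (SD, n = 3 each). Whether the seedlings had green tissue was not tested.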

How the data were processed

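Per the submitters' processing notes, the deposited log2 values were made with GCRMA and limma, with no version or order of steps given. The log base is not stated, and was read as log2 from the range of 2.12 to 15.7. The 12 arrays (3 per treatment) entered 1 limma 3.58.1 fit in R 4.3.3 (lmFit, eBayes) with 4 group means, after removal of 64 control probe sets, which left 22746. There are no counts, so 3 arrays a group limit the precision. Probe sets were named through the platform annotation, updated by gene ID to TAIR10.1, which served for names and gene order alone. Of them 13513 had 1 gene, 503 several and 8730 none.

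All tests are two-sided. The code was tested on simulated data. Per-array values are given for the largest changes, members called with SMX and role-list members. Members and lists were chosen with earlier results of these data known. For sucrose plus SMX against sucrose, deviations of same-numbered arrays from their group means correlated at 0.131 to 0.221, all over 0.1, so the replicate numbers were taken to pair these arrays. For the other comparisons they were not. Alternatives were other scalings, filters on low values, a replicate block, labelling scores as covariates, fewer arrays, another variance model and a minimum size.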

Additional observations from a re-analysis of the deposited data

How the results depend on the processing

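Each treatment has 3 arrays, and the labelling scores split by sucrose. Of the members called, AT5G64100 was the one whose difference changed sign: for sucrose plus SMX against control it was −0.098 with the spike score, or −0.27 with actin as the score, and against SMX it was −0.041 with actin as the score. With the spike score the number of members called was 0 for sucrose alone, 2 for sucrose plus SMX against control, 1 against SMX and 2 in the F test. Of all 22746 probe sets 0.211%, 1.06% and 0.664% were called in the 3 comparisons, and 85 probe sets in the F test. With the actin score the members called were 2, 4, 0 and 2. Of all probe sets 0.967%, 1.31% and 0.712% were then called, and 143 in the F test. The other scalings, the filters on low values, the variance model and the set of probe sets tested kept the counts of these 4 tests within 1.5 times. So did the minimum size for the 3 comparisons (it was not run for the F test). When only the arrays compared were fitted, 11 members were called for sucrose alone, against 8.16% of all probe sets. The calls of AT1G30870, AT2G39040, AT3G01190, AT3G28200, Prx37, PRXR1, AT4G36430 and AT5G66390 ended in that limma fit (adjusted p from 0.0534 to 0.139). Median centring shifted the median sucrose difference of all probe sets to −0.11. Then 18 members were called up and 3 down, against 27.8% of all probe sets called either way. For SMX alone the count was 0 after median centring, quantile normalization or the replicate block, against 0.022% to 0.0572% of all probe sets. With only the arrays compared it was 0, as it was for all 22746 probe sets. It was also 0 with either filter on low values or a minimum size of 1, which could not keep the call of AT4G16270. The filters removed that member before testing, at a mean of 2.27, and its difference was 0.34. For sucrose plus SMX against sucrose it was 2 after median centring, quantile normalization, either filter on low values or the replicate block. Of all probe sets tested, 0.123% to 0.466% were called in these fits. With only the arrays compared the count was 0, as it was for all 22746 probe sets. For the interaction it was 2 after median centring (0.0923% of all probe sets) and 1 with a mean above 4 (0.0776%) or above 6 (0.173%). Without single arrays, the counts were 15 to 20 for sucrose alone, 1 to 1 for SMX alone, 19 to 23 for sucrose plus SMX against control, 1 to 2 against sucrose, 23 to 25 against SMX, 0 to 1 for the interaction and 24 to 26 for the F test. Of all probe sets 14.4% to 28.1%, 0.0396% to 0.308%, 20% to 30.8%, 0.114% to 0.229%, 26.3% to 33.9% and 0.0308% to 0.211% were then called in the 6 comparisons. The F test then called 5847 to 7708 of the 22746. Between 27 and 29 members were expressed without single arrays. In the comparisons whose numbers do not pair, the replicate block gave 19, 0, 21 and 24 members for sucrose alone, SMX alone, sucrose plus SMX against control and against SMX. Of all probe sets it gave 21.4%, 0.022%, 25.9% and 31.2%. Same-numbered arrays in these comparisons correlated at −0.404 to 0.21.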
